A study of Drosophila melanogaster with 3 samples.

Results

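Germ cells of the Drosophila melanogaster embryo that held an intermediate amount of the germ plasm RNA pgc were examined in the unsexed library of a single-cell series. A cell was taken when it had at least 1000 unique molecular identifiers (UMIs, each the tag of 1 captured RNA molecule) and at least 500 detected genes, UMIs for at least 3 of the 7 germ genes vas, nos, pgc, zpg, aub, CG17650 and CG14545, at least 1 but fewer than 20 pgc UMIs per 10000 UMIs of the cell, and fewer than 3 sisA UMIs. The members were thus chosen by the measured counts of these genes in the same cells. This rule held for 1014 of the 3810 barcodes of the library, or 26.9% of the 3771 barcodes past the depth limits (exact binomial interval 25.5 to 28.3%), out of 20952 barcodes in the series. They are called intermediate-pgc cells, because the pgc level was measured and the order of the cells in time was not.

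The unsexed library came from vas-GFP embryos aged 0 to 8 h, dissociated and sorted for GFP, and was made with version 2 of the 10x Genomics Chromium 3' kit. Female and male libraries, aged 5 to 8 h, came from embryos that carried Sxl-GFP besides vas-GFP and used kit version 3. Eggs were laid at 25 °C for these periods or at 18 °C for double the time, per the labels, which do not give the temperature of each library. The 3 libraries held 58378567, 109431813 and 47345241 UMIs in this order. Each group was 1 library made from many embryos, so no test was possible. All intervals are exact 95% intervals that cover counting error only. The temperature and kit cannot be told apart from the group when libraries are set side by side.

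Pole cells, the first cells to form in the fly embryo, take up germ plasm with maternal RNAs that direct germ cell fate. One of them, pgc, encodes a short protein that holds back RNA polymerase II transcription by keeping the elongation kinase P-TEFb from its promoters. As the pgc protein disappears, germ cells begin to transcribe their own genome, while maternal RNAs are removed and the cells are carried into the embryo with the gut.

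Within the unsexed library the intermediate-pgc cells had neighbours on both sides of the pgc window. Pgc-rich pole cells, with 20 or more pgc UMIs per 10000, numbered 331. Pgc-poor germ cells, with under 1, numbered 1494. A further 470 cells met the germ gene rule with 3 or more sisA UMIs and were set aside, and 462 cells had fewer than 3 germ genes and served as the level of RNA outside germ cells. The 470 sisA-rich cells spanned the window, with a median of 24.1 pgc UMIs per 10000 and quartiles of 7.64 and 39.2. The rule thus removed cells with the most sisA, an early zygotic X-linked gene, at every pgc level.

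The intermediate-pgc cells were sampled about as deeply as their neighbours. Their median was 16118.5 UMIs and 3121 genes, against 15635 UMIs and 3074 genes in pgc-rich and 17885.5 UMIs and 3405.5 genes in pgc-poor cells. Cells with fewer than 3 germ genes were shallower, with a median of 3773.5 UMIs. Mitochondrial genes held 1.70% of the UMIs of intermediate-pgc cells, and 0 of these cells exceeded 20%. Doublet scoring with Scrublet placed 38 intermediate-pgc cells among the 114 highest scores of the library. The unsexed library shared 1 barcode with the female and 0 with the male library.

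The pgc window was filled without a gap. The median intermediate-pgc cell held 6 pgc UMIs (range 1 to 51), or 4.11 per 10000, with quartiles of 1.86 and 9.49. The nearest cells on either side of the lower bound stood at 0.998 and 1.001 per 10000, and those at the upper bound at 19.96 and 20.03. Within 10% of the lower bound lay 35 cells inside and 30 outside, and within 10% of the upper bound 36 inside and 23 outside. Of the 1014 cells, 164 had UMIs for all 7 germ genes and 26 for only 3, and 806 had no sisA UMI.

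**Figure D1:**
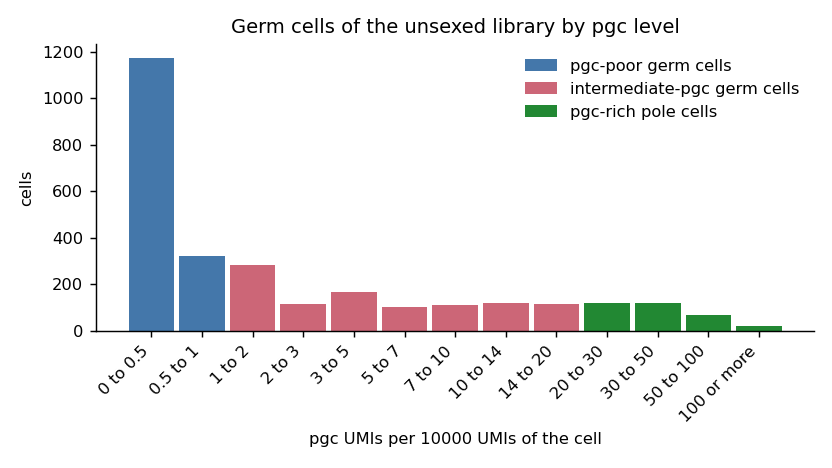
Number of germ cells (vertical axis, cells) of the unsexed library by pgc UMIs per 10000 UMIs of the cell (horizontal axis). Bars are coloured by class, and the 1014 intermediate-pgc cells lie between 1494 pgc-poor and 331 pgc-rich cells with no empty bin at the bounds of the window; bins are of unequal width.

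The 5 markers given for these cells were germ line and early zygotic genes. Besides pgc, they are SNCF (FBgn0036349, chromosome 3L, 13378583 to 13379190), Z600 (FBgn0004052, 3L, 15509061 to 15509513), BigH1 (FBgn0038252, 3R, 14663450 to 14664822) and zpg (3L, 6604366 to 6606032), in coordinates of BDGP6.54. Since pgc and zpg belong to the rule, their detection says nothing of the label, and a loss over time was not measured. SNCF is transcribed early from the embryo's own genome. Z600 encodes an inhibitor of entry into mitosis, BigH1 an embryonic linker histone, and zpg a gap junction protein of the germ line. SNCF overlaps CG14111 and Z600 overlaps gdl on the same strand in the annotation, so reads of these genes cannot be fully told apart.

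Levels are summed UMIs of a class, scaled to a total of 1000000 (CPM) with mitochondrial genes left out. The intermediate-pgc cells were also divided at 10, 5 and 2 pgc UMIs per 10000 into 4 steps of 237, 214, 282 and 281 cells. In this order SNCF stood at 485, 365, 142 and 34.0 CPM, between 509 CPM in pgc-rich and 4.86 CPM in pgc-poor cells. The first step was thus close to the pgc-rich level, and most of the difference lay in the 2 steps with the least pgc. Z600 took the same course, with 338, 284, 115 and 28.7 CPM between 363 and 8.41 CPM. Both genes were detected in cells with fewer than 3 germ genes, SNCF at 52.5 CPM and Z600 at 14.9 CPM.

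BigH1 differed less over the steps. It stood at 641, 551, 544 and 503 CPM, against 787 CPM in pgc-rich and 355 CPM in pgc-poor cells. The innexin gene zpg was level throughout, at 501, 483, 509 and 510 CPM between 526 and 516 CPM. BigH1 was low in cells with fewer than 3 germ genes, at 38.5 CPM. The level of zpg there, 35.3 CPM, was limited by the rule itself, which counts zpg among the germ genes. The transcript vas, also a gene of the rule, stood at 156 CPM in intermediate-pgc cells and at 116 CPM in cells with fewer than 3 germ genes.

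At a common depth the markers were seen in different shares of cells. After each cell was thinned to 5000 UMIs, which left out 16 intermediate-pgc cells, SNCF had a UMI in 35.1% of intermediate-pgc cells (46.8% unthinned), 66.7% of pgc-rich and 1.70% of pgc-poor cells. The share in cells with fewer than 3 germ genes was 7.58%, of the 132 deep enough to thin. Over the 4 steps the SNCF share was 68.2, 50.5, 23 and 7.83%. At the lowest step it was close to that of cells with fewer than 3 germ genes and above that of pgc-poor cells. Z600 went from 55.4% to 10.3% over the steps, against 5.30% in cells with fewer than 3 germ genes. Shares at or below those of cells with fewer than 3 germ genes, as in pgc-poor cells for SNCF and Z600 (3.74%), were not told apart from background. That class is not a pure background, since single cells in it held up to 60.3 pgc UMIs per 10000. BigH1 had a UMI in 87.8% and zpg in 90.7% of thinned intermediate-pgc cells.

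Single cells spread widely around these sums. Of the intermediate-pgc cells, 53.2% had no SNCF UMI and 51.6% no Z600 UMI at full depth, while the highest 5% of cells held more than 11.0 SNCF and 9.33 Z600 UMIs per 10000. BigH1 was narrower, with a median of 5.18 per 10000 and quartiles of 3.07 and 7.34. For zpg the median was 4.69, with quartiles of 3.24 and 6.26.

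Every other gene was compared between the intermediate-pgc cells and each neighbour in the same way. Since pgc chose all 3 classes from the same library, these ratios are descriptions. A gene entered with at least 20 CPM in 1 class and at least 50 UMIs over both, and was counted at a CPM ratio of at least 2 in either direction. The rule genes were left out. Against pgc-rich pole cells, 149 of 4576 genes (3.26%) were at least 2-fold higher and 205 (4.48%) at least 2-fold lower in intermediate-pgc cells. Against pgc-poor germ cells, 166 of 4705 genes (3.53%) were higher and 169 (3.59%) lower. The median log2 ratio over all genes was 0.060 against pgc-rich and -0.090 against pgc-poor cells.

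Genes of the first wave of zygotic transcription were mostly lower than in pgc-rich pole cells. Of the 21 genes of that list in the files, 15 entered, 13 were at least 2-fold lower in intermediate-pgc cells and 0 were higher, with a median log2 ratio of -2.06. Against pgc-poor cells 9 entered and 8 were higher, with a median of 4.22. With sisA left out, since the rule limits it, the median pgc-rich cell held 20.1 UMIs of the list per 10000. The medians of the steps were 13.5, 7.52, 2.81 and 1.28, and that of pgc-poor cells was 0.575. The median was 17.7 in sisA-rich cells and 0.402 in cells with fewer than 3 germ genes. In the latter class 50% of cells held none, while the upper quartile was 6.58. As a sum with sisA included, the list stood at 963 CPM there, above 866 CPM in intermediate-pgc cells. The part of RNA from outside germ cells in these levels was not tested. The gene Sry-alpha had no UMI in the intermediate-pgc cells, which allows up to 0.186 CPM by a limit of 3 counts. SNCF itself was 2.17-fold below pgc-rich cells (2.06 to 2.28) and Z600 2.07-fold (1.95 to 2.19), and Z600 was at 1.81 to 1.99-fold under 4 of the alternatives.

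Genes that drive the formation of cell membranes in the blastoderm were among the lowest against pgc-rich cells. The transcript nullo, whose protein stabilises the growing furrows, stood at 37.3 CPM in pgc-rich cells and at 16.7, 2.13 and 0.908 CPM over the first steps. Its level in intermediate-pgc cells was 8.22-fold lower than in pgc-rich cells (6.25 to 10.9). The actin regulator bnk (bottleneck) was 8.11-fold lower (6.28 to 10.5) and the furrow gene slam 7.45-fold lower (5.71 to 9.79). At 2 to 5 pgc UMIs per 10000 little of these RNAs was detected, with 0.681 CPM of bnk and 0.908 CPM of slam. In the narrower pgc window of 2 to 10 per 10000, nullo was 26.1-fold, bnk 18.3-fold and slam 15.2-fold lower than in pgc-rich cells.

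Other early genes followed at a similar size. Elba2, a subunit of an insulator complex of the early embryo, was at 96.6 CPM in pgc-rich and 17.3 CPM in intermediate-pgc cells, a 5.58-fold difference (4.81 to 6.49). CG15876 was at 167 and 28.7 CPM in these classes, a 5.81-fold difference (5.18 to 6.52), and overlaps RhoGEF64C on the opposite strand. It was 9.81-fold lower in the narrower window. The remaining genes among the 10 lowest were CG10527, CG7191, CG16815, olf186-M and Cyp6a22, between 5.6-fold and 7.71-fold lower. With cells thinned to 2000 UMIs CG10527 was 20.7-fold and Cyp6a22 8.76-fold lower, and with 0 sisA UMIs CG16815 was 12.4-fold lower. Among them olf186-M lies in Orai on the same strand, and Cyp6a22 was at 3.91 CPM in intermediate-pgc and 5.79 CPM in pgc-poor cells.

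Early zygotic genes also led the other comparison. SNCF was 48.3-fold higher in intermediate-pgc than in pgc-poor cells (40.5 to 58.2), CG15876 37.2-fold (23.8 to 61.5), the proneural gene amos 25.0-fold (16.1 to 41) and Z600 20.9-fold (18.2 to 24.1). Over the alternatives that moved them by more than 1.5 times, CG15876 was between 16.8-fold and 64.7-fold and amos between 11.8-fold and 15.8-fold higher. The lipid droplet transport gene halo was at 236 CPM in pgc-rich, 87.8 CPM in intermediate-pgc and 4.71 CPM in pgc-poor cells. Sog, a secreted antagonist of BMP signalling, stood at 195, 119, 53.6 and 24.9 CPM over the steps, between 196 and 4.79 CPM. Patterning genes were among them as well, with tll, a terminal gap gene, at 60.2 CPM and the Sox gene D at 31.6 CPM, 8.81-fold and 8.44-fold above pgc-poor cells. RNA outside germ cells was higher than in the intermediate-pgc cells for 4 of these 10 genes, with 98.6 CPM of sog, 102 CPM of lncRNA:CR43887, 75.6 CPM of CG42762 and 106 CPM of D.

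**Figure D2:**
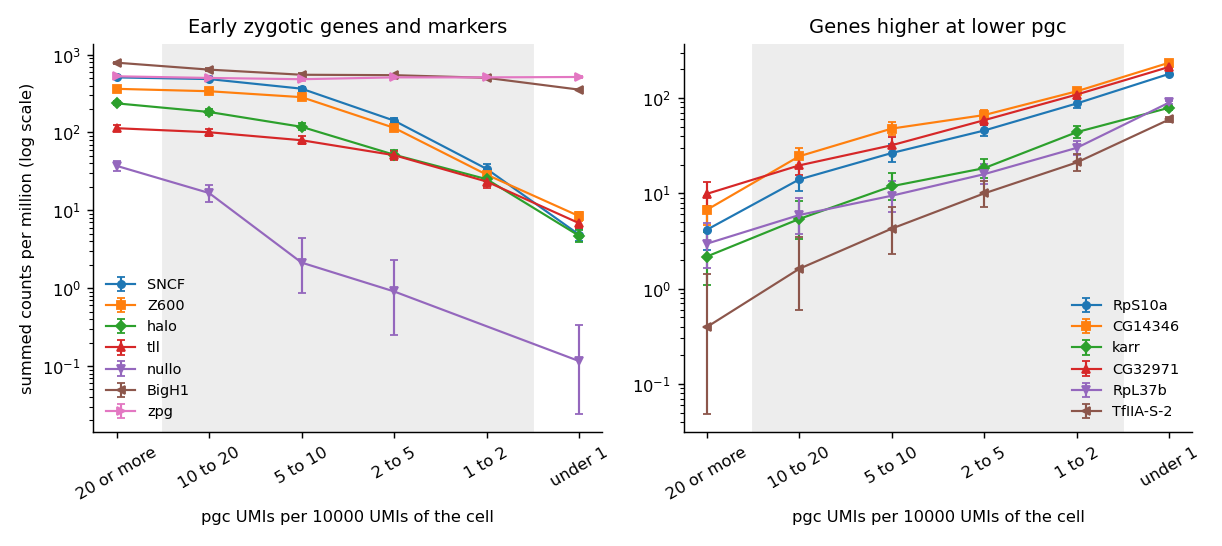
Summed CPM (vertical axis, log scale) of early zygotic genes and markers (left) and of genes higher at lower pgc (right), over pgc-rich pole cells, the 4 steps of intermediate-pgc cells and pgc-poor germ cells (horizontal axis, pgc UMIs per 10000). Points are class sums and bars are exact Poisson 95% intervals; SNCF runs from 509 to 4.86 CPM while zpg stays between 483 and 526 CPM and RpS10a runs from 4.14 to 179 CPM. No nullo UMI was found at 1 to 2 pgc UMIs per 10000, so its line skips that step.

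Segmentation and gap genes were present in intermediate-pgc cells. Of 15 such genes 7 entered against pgc-rich cells, where 4 were lower and 0 higher, and 5 entered against pgc-poor cells, where 4 were higher and 0 lower. The pair-rule repressor h was the highest, at 604 CPM in pgc-rich, 300.0 CPM in intermediate-pgc and 53.5 CPM in pgc-poor cells. Its ratio to pgc-rich cells, 2.01-fold lower, was between 1.78 and 1.97 under 5 of the alternatives. The gap gene gt did not follow pgc in the first step, with 119 CPM in pgc-rich cells, 165 CPM in the step of 10 to 20, and 105, 112 and 65.1 CPM after it. The homeobox gene zen, outside the list, was also at its highest inside the window, at 116 and 114 CPM in the first 2 steps against 76.7 CPM in pgc-rich and 12.6 CPM in pgc-poor cells. Cells with fewer than 3 germ genes held 368 CPM of h and 18.6 CPM of gt. The 15 listed genes summed to 928 CPM there, against 1087, 582 and 115 CPM in pgc-rich, intermediate-pgc and pgc-poor cells. The part of RNA from outside germ cells in these levels was not tested.

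Maternal RNAs of the germ plasm were split. Of 14 listed genes 11 entered against pgc-rich cells, with 6 lower, 0 higher and a median log2 ratio of -1.03. Against pgc-poor cells 9 entered, with 3 higher, 0 lower and a median of -0.066. The RNA of gcl, which is needed to form pole cells, went from 531 CPM in pgc-rich cells to 186, 133, 82.8, 53.4 and 44.4 CPM. CycB, the mitotic cyclin stored in germ plasm, went from 2389 CPM to 1474, 1327, 1122, 876 and 476 CPM. It was 2.04-fold below pgc-rich cells, and 1.96 to 1.98-fold under 2 of the alternatives. In contrast osk, the organiser of germ plasm, had its minimum of 37.1 CPM in the step of 5 to 10, below 145 CPM in pgc-rich and 66.4 CPM in pgc-poor cells. The actin nucleator spir was 2.33-fold below pgc-rich and 2.24-fold above pgc-poor cells.

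The rule genes behaved unequally, as a description. The translational repressor nos, whose RNA marks germ plasm with pgc, stood at 557 CPM in pgc-rich, 172 CPM in intermediate-pgc and 47.6 CPM in pgc-poor cells. CG17650 ran the other way, from 19.3 CPM through 94.0 CPM to 321 CPM, and vas went from 110.0 through 156 to 270 CPM. The piRNA gene aub stayed between 31.8 and 58.9 CPM over all classes and steps.

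Some regulators of maternal RNA and of the cell cycle were higher in intermediate-pgc than in pgc-poor cells. Of 18 genes for repression and decay of maternal RNA that entered against pgc-poor cells, 4 were at least 2-fold higher and 1 lower, with a median log2 ratio of 0.11. The poly(A) polymerase gene wisp stood at 1374 CPM in pgc-rich cells, at 1275, 1103, 928 and 665 CPM over the steps, and at 227 CPM in pgc-poor cells, a ratio of 4.27 over the latter (4.14 to 4.40). The RNA of pum, a partner of nos in repression, was at 862 CPM, 2.47-fold above pgc-poor cells (2.40 to 2.53) and 2.29-fold below pgc-rich cells. The RNA helicase gene me31B was 2.10-fold above pgc-poor cells, or 1.92-fold in mean UMIs per cell.

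The lower gene was gnu, a subunit of the kinase complex that starts translation of maternal RNAs at egg activation. It stood at 219 CPM in pgc-rich cells, at 105, 103, 127 and 205 CPM over the steps and at 337 CPM in pgc-poor cells. Of 27 cell cycle genes that entered against pgc-poor cells, 3 were higher and 0 lower, and of 28 against pgc-rich cells 5 were lower and 0 higher. The mitotic phosphatase gene stg stood at 900.0 CPM in pgc-rich and 325 CPM in intermediate-pgc cells, 2.77-fold lower (2.66 to 2.88). The replication licensing gene dup was 2.46-fold above pgc-poor cells, at 112 against 45.5 CPM.

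Of the genes that entered, those higher in intermediate-pgc than in pgc-rich cells were led by RpS10a, a paralog of a small-subunit ribosomal protein. It stood at 4.14 CPM in pgc-rich cells, at 14, 26.5, 45.6 and 87.7 CPM over the steps, and at 179 CPM in pgc-poor cells. The ratio over pgc-rich cells was 11.3 (7.32 to 18.3) and was 17.4 when the highest doublet scores were removed. CG14346 was 10.1-fold higher (7.20 to 14.7) and karr 9.90-fold (5.47 to 20), both further up in pgc-poor cells at 235 and 79.1 CPM. At 5000 UMIs, RpS10a had a UMI in 15.2% of intermediate-pgc cells, 0.926% of pgc-rich and 52.7% of pgc-poor cells, against 1.52% in cells with fewer than 3 germ genes.

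Not all of the 10 highest genes went on upward. The secreted glycoprotein gene ana was at 8.67 CPM in pgc-rich cells, at 30.9, 60.5, 66.9 and 58.7 CPM over the steps, and at 46.0 CPM in pgc-poor cells. Its ratio over pgc-rich cells was 6.33, or 3.93 with 0 sisA UMIs. Drat reached 75.1 CPM in the last step and 68.5 CPM in pgc-poor cells, but cells with fewer than 3 germ genes held 251 CPM of it. Its ratio over pgc-rich cells was 7.10, or 11.1 with 0 sisA UMIs. CG14321 was also higher there, at 63.3 CPM against 46.7 CPM in intermediate-pgc cells, and its ratio over pgc-rich cells was 6.23, or 4.15 with 0 sisA UMIs. Also among the 10 were CG32971, CG6999, CG14864 and lncRNA:CR43356, between 4.71-fold and 5.96-fold above pgc-rich cells and below pgc-poor cells, with CG14864 at 2.80-fold after thinning to 2000 UMIs. The counts of CG32971 and RpS10a are uncertain, because the former is nested in wb on its own strand and tau runs across the latter on the other.

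The genes lowest against pgc-poor cells had varied roles. The synaptonemal complex gene cona was 7.14-fold lower (5.59 to 9.25), at 4.34 against 31.0 CPM. TfIIA-S-2, a variant of the small TFIIA subunit, was at 0.394 CPM in pgc-rich cells, at 1.61, 4.26, 9.98 and 21.1 CPM over the steps and at 59.6 CPM in pgc-poor cells, 5.89-fold above the intermediate-pgc level (5.01 to 6.96). Its canonical counterpart TfIIA-S differed less, at 172, 289 and 518 CPM in the 3 classes.

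The ribosomal protein paralogs RpL37b and RpS19b were 5.48-fold and 5.11-fold below pgc-poor cells. Of 12 such germ line paralogs 9 entered against pgc-poor cells, with 4 lower and 0 higher, and 7 against pgc-rich cells, with 2 higher and 0 lower. The 80 main ribosomal protein genes were flat by comparison, since 0 of the 79 that entered passed the fold in either comparison. The paralogs share much of their sequence with the main genes, so reads may have been split between copies. Of the respiratory chain genes named here, Cyt-c1L stood at 1.58, 13.2 and 55.8 CPM in pgc-rich, intermediate-pgc and pgc-poor cells and ATPsynepsilonL, an ATP synthase subunit gene, at 14.6, 44.7 and 165 CPM. The ratio of ATPsynepsilonL over pgc-rich cells was 3.06, or 7.42 after thinning to 2000 UMIs. Others among the 10 lowest were CG15262, betaNACtes6, ND-B8, B9d1 and HP1Lcsd, between 4.22-fold and 4.99-fold lower than in pgc-poor cells. ND-B8 was 7.50-fold lower in the narrower window and B9d1 7.36-fold lower after thinning.

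Within the intermediate-pgc cells alone, the step with 1 to 2 pgc UMIs per 10000 was set against the step with 10 to 20. Of 4598 genes that entered, 182 (3.96%) were at least 2-fold higher and 109 (2.37%) at least 2-fold lower at low pgc. CG15876 differed most, from 87.9 to 1.06 CPM, 82.7-fold (35.1 to 256). CG14427 went from 33.1 to 0.638 CPM, lncRNA:CR43887 from 70.5 to 2.77 CPM, amos from 45.5 to 1.92 CPM and CG13454 from 26.1 to 1.49 CPM. In the other direction TfIIA-S-2 was 13.1-fold higher at low pgc (5.79 to 36.4), CG15262 10.5-fold, Cyt-c1L 9.85-fold, CG6628 8.94-fold and karr 8.15-fold (5.14 to 13.6). The steps had similar median depths, from 15530.5 to 16911 UMIs. The share of cells with any sisA UMI differed, at 42.2, 25.7, 13.5 and 5.34% from the first to the last step, and its part in these differences was not tested.

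A small number of genes stood apart from both neighbours. Of 4377 genes that entered both comparisons, 5 (0.114%) were at least 2-fold above and 2 (0.0457%) at least 2-fold below both pgc-rich and pgc-poor cells. The 5 were Hsp68, Dad, Hsp70Bc, egr and cv-2. Those below both were stet and cnc.

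Hsp68, a heat-inducible chaperone, stood at 103 CPM in pgc-rich cells, at 239, 311, 288 and 263 CPM over the steps and at 100 CPM in pgc-poor cells. Hsp70Bc followed at 36.3 CPM, then 106, 114, 84.0 and 63.4 CPM, then 26.6 CPM, and the near-identical copies of Hsp70 make its count uncertain. The small heat shock genes were much more abundant and had the same shape. Hsp26 went from 3117 CPM to 5258, 6727, 6950, 6231 and 3835 CPM, and Hsp23 from 1209 CPM to 2570, 3332, 3368, 2812 and 1510 CPM.

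Over 11 heat shock genes together the median intermediate-pgc cell held 107 UMIs per 10000, with quartiles of 62.6 and 146. The medians were 40.5 in pgc-rich, 42.1 in pgc-poor and 12.0 in cells with fewer than 3 germ genes. The sums of the last class were 156 CPM of Hsp68, 77.8 CPM of Hsp70Bc, 1446 CPM of Hsp23 and 1911 CPM of Hsp26. For Hsp68 and Hsp70Bc these sums exceeded both neighbours and were below the intermediate-pgc cells, at 274 and 89.2 CPM. The part of RNA from outside germ cells was not tested. In sisA-rich germ cells, which span the window, the median over the 11 genes was 28.2. Their sums were 68.8 CPM of Hsp68, 25.2 CPM of Hsp70Bc, 935 CPM of Hsp23 and 2368 CPM of Hsp26, below both neighbours. Of a list of chaperone genes without Hsp68 and Hsp70Bc 11 entered, of which Hsp23 and Hsp26 were at least 2-fold above pgc-rich cells and 0 were 2-fold apart from pgc-poor cells, where Hsp23 was just short at 2.00-fold (1.97 to 2.02). The ratio of Hsp26 over pgc-rich cells, 2.02, was 1.88 with 0 sisA UMIs and 1.93 with TMM scaling. The constitutive chaperone Hsc70-4 was level, at 2141, 2296 and 2173 CPM. Heat shock RNA can be a sign of stress in cells, but stress was not measured here. The part of stress in the other differences of the intermediate-pgc cells was not tested.

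The other genes above both neighbours act in signalling. Dad, an inhibitory Smad that is induced by BMP signals, stood at 7.69 CPM in pgc-rich cells, at 27.7, 47.2, 31.8 and 17.2 CPM over the steps and at 11.2 CPM in pgc-poor cells. The BMP-binding gene cv-2 went from 25.4 CPM to 55.7, 54.8, 57.9, 40.2 and 15.6 CPM. The TNF ligand gene egr went from 17.0 CPM to 37.1, 55.4, 39.3, 23 and 9.99 CPM. Along the pgc order all 3 were highest inside the window, Dad and egr in the step of 5 to 10. The sisA-rich germ cells, which span the window, held more egr than the intermediate-pgc cells, at 50.5 against 37.3 CPM, but less Dad and cv-2, at 7.12 and 29.98 CPM.

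The calls of egr, cv-2 and Hsp70Bc were lost under some settings. With 0 sisA UMIs required of all classes, the ratio of egr over pgc-rich cells was 1.21 in place of 2.20, that of cv-2 1.72 in place of 2.03 and that of Hsp70Bc 1.86 in place of 2.46. With cells thinned to 2000 UMIs these ratios were 1.76, 1.87 and 1.97, and cv-2 was at 1.93 with TMM scaling. Dad and Hsp68 were at or above the fold under each of the alternatives that kept the limit of 2-fold and 20 CPM. Dad was in 12.1% of intermediate-pgc cells at 5000 UMIs, against 3.70% of pgc-rich, 5.04% of pgc-poor and 15.9% of cells with fewer than 3 germ genes, whose sum was 27.1 CPM. The share of intermediate-pgc cells with Dad was thus not above that of cells outside the germ line. The part of RNA from such cells in the Dad level was not tested.

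The 2 genes with a minimum were stet, a rhomboid protease gene, and cnc, a stress-response transcription factor gene. Stet stood at 54.4 CPM in pgc-rich cells, at 19.1, 18.6, 19.3 and 26.6 CPM over the steps and at 47.7 CPM in pgc-poor cells. Cnc went from 89.3 CPM to 39.3, 24.0, 22.5, 34.5 and 64.2 CPM, and it shares its strand with fzo, which it overlaps. The sisA-rich germ cells, which span the window, held more of both than the intermediate-pgc cells, at 46.7 CPM of stet and 84.8 CPM of cnc. Against pgc-poor cells cnc was 2.13-fold lower, or 1.99-fold with cells thinned to 2000 UMIs and 1.94-fold with TMM scaling. At 1.5-fold the sets held 15 genes above and 12 below both neighbours, which added among others Hsp23, Hsp26, DnaJ-1, salm, Antp and Xrp1 above, and gnu, Fim, Rab39 and G9a below.

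**Figure D3:**
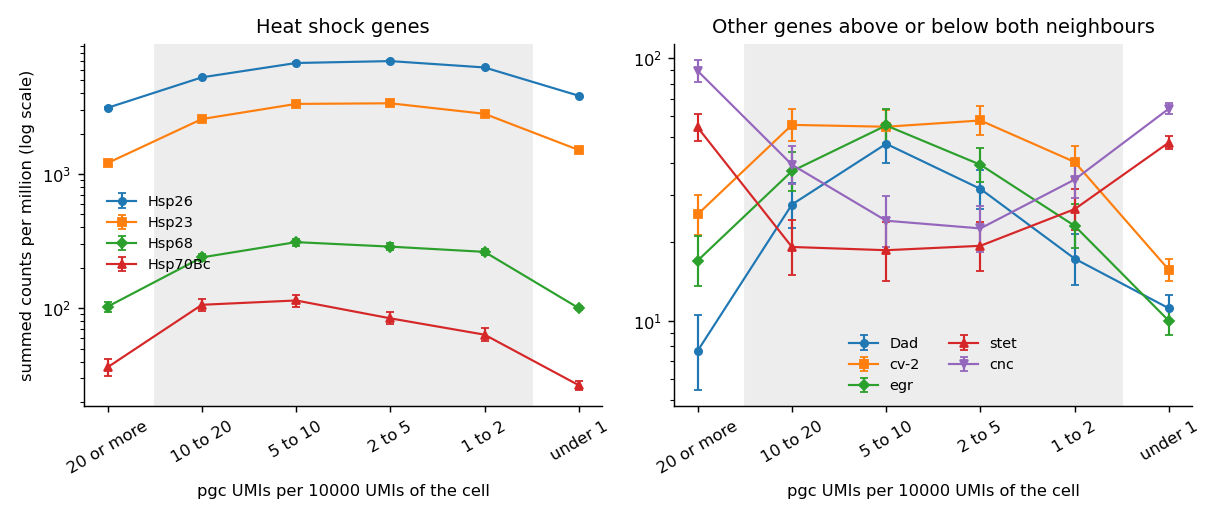
Summed CPM (vertical axis, log scale) of 4 heat shock genes (left) and of Dad, cv-2, egr, stet and cnc (right) over pgc-rich pole cells, the 4 steps of intermediate-pgc cells and pgc-poor germ cells (horizontal axis, pgc UMIs per 10000). Points are class sums and bars are exact Poisson 95% intervals; Hsp68 is between 239 and 311 CPM inside the window and near 100 CPM at both ends, and stet is between 18.6 and 26.6 CPM inside it.

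Many groups had few genes past this fold in either comparison. Of 22 piRNA pathway genes that entered against pgc-rich cells 1 was lower, moon at 24.8 against 61.9 CPM, and 0 of 25 passed the fold against pgc-poor cells. Of 20 genes of the transcription machinery that entered, 0 passed it against pgc-rich cells, and 1 of 21 was lower than in pgc-poor cells. TfIIA-S-2 was under 20 CPM in both pgc-rich and intermediate-pgc cells and so did not enter the former comparison. The subunits of P-TEFb, through which pgc acts, were close to level, with Cdk9 at 56.6, 71.4 and 79.1 CPM and CycT at 85.8, 92.7 and 89.6 CPM in pgc-rich, intermediate-pgc and pgc-poor cells. Among histone genes 0 of 8 passed the fold in either comparison, with His2Av at 2411, 2506 and 2585 CPM. Of 61 nuclear genes of oxidative phosphorylation 1 was higher than in pgc-rich cells, ATPsynepsilonL, of 32 proteasome genes 1, Rpt3R, and of 72 mitochondrial ribosomal genes 1, mRpS25. The ratio of mRpS25, 2.06, was 1.98 in the narrower window and 1.96 with TMM scaling. Against pgc-poor cells 2 of 62 oxidative phosphorylation, 1 of 32 proteasome and 0 of 72 mitochondrial ribosomal genes were lower. The germ line factor ovo was level at 284, 275 and 275 CPM.

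Smaller groups held single genes past the fold. In JAK-STAT signalling the feedback inhibitor Socs36E was 3.06-fold above pgc-poor cells, at 112 CPM, but cells with fewer than 3 germ genes held 352 CPM. The transcription factor chinmo went from 11.4 CPM in pgc-rich cells through 34.4 CPM to 129 CPM in pgc-poor cells, and ken was 3.36-fold below pgc-poor cells. Among death genes rpr stood at 65.3, 73.3 and 19.1 CPM in the 3 classes, 3.84-fold above pgc-poor cells (3.45 to 4.27). The transporter gene out, needed for programmed death of germ cells, was 2.58-fold above them at 20.2 CPM. Cells with fewer than 3 germ genes held 233 CPM of rpr. Of 12 migration genes wun2, a lipid phosphatase gene that acts in germ cell survival, was 2.44-fold above pgc-poor cells at 107 CPM, and the hexokinase gene Hex-A, of 10 glycolysis genes, 2.96-fold at 51.0 CPM.

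**Figure D4:**
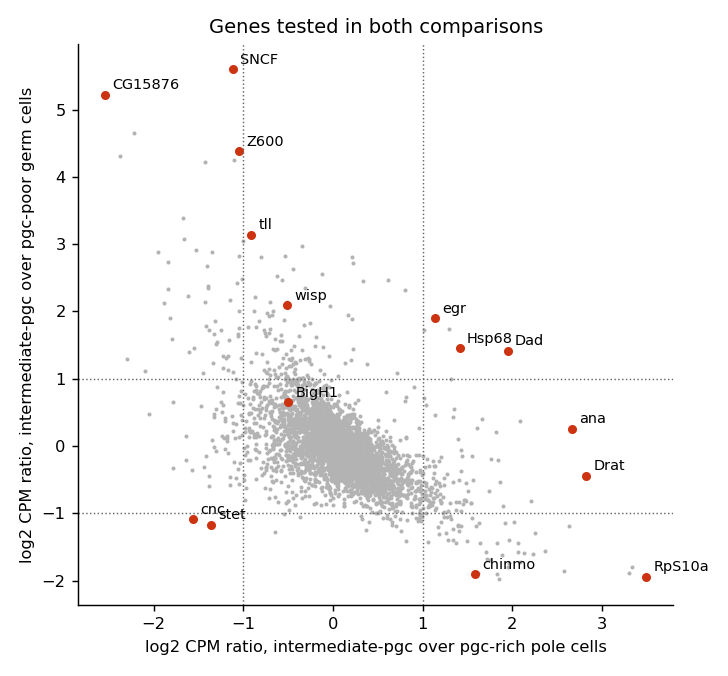
Each grey point is 1 of 4377 genes tested in both comparisons, with the log2 CPM ratio of intermediate-pgc over pgc-rich cells on the horizontal axis and over pgc-poor cells on the vertical axis; dotted lines mark 2-fold. Named genes in red include Hsp68, Dad and egr above 2-fold on both axes and stet and cnc below, and both ratios share the counts of the intermediate-pgc cells, so no correlation is given.

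Early and late transcripts were also looked at cell by cell, after thinning to 5000 UMIs. SNCF and Z600 stood for the early set and RpS10a, CG14346, karr and CG32971 for the late set, chosen after their values were seen. Of 998 intermediate-pgc cells, 33.7% had UMIs of the early set only (30.7 to 36.7%), 27% of the late set only (24.2 to 29.8%), 10.9% of both (9.05 to 13.0%) and 28.5% of neither. Pgc-rich cells were 64.8% early only and 7.10% both, and pgc-poor cells 83.8% late only and 2.93% both. Cells with both sets made up 16.7, 17.6, 6.93 and 4.98% of the 4 steps. The share was highest in the steps with more pgc, and in cells with fewer than 3 germ genes it was 0.758%. Doublets were kept, with 38 intermediate-pgc cells among the 114 highest scores, and their part in the cells with both sets was not tested.

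**Figure D5:**
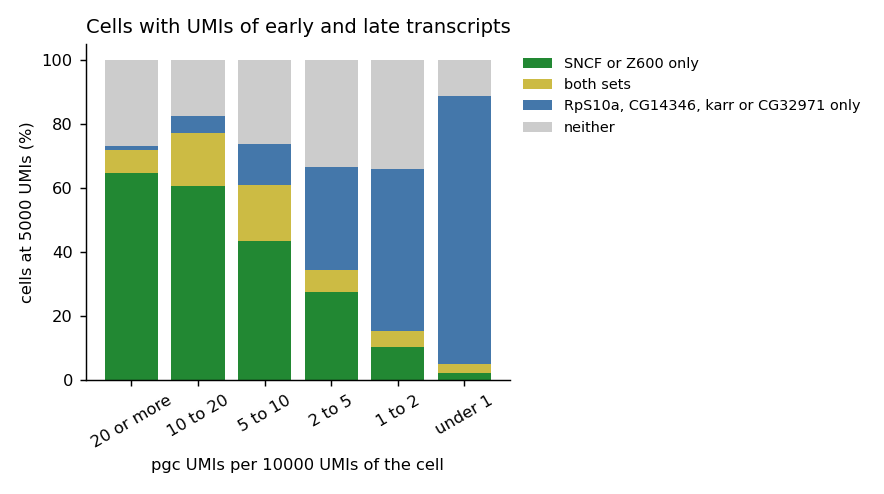
Share of cells thinned to 5000 UMIs (vertical axis, percent) with UMIs of SNCF or Z600 only, of RpS10a, CG14346, karr or CG32971 only, of both sets or of neither, in pgc-rich cells, the 4 steps and pgc-poor cells (horizontal axis, pgc UMIs per 10000). Cells with both sets reach 16.7% and 17.6% in the first 2 steps and are 2.93% of pgc-poor cells.

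The female and male libraries, which had no part in choosing the genes, were divided by the same rule. They held 291 and 1435 cells in the pgc window and 852 and 2949 pgc-poor germ cells. Pgc-rich cells numbered 113 in the male library and 17 in the female library, too few to use. Fewer genes passed the fold against pgc-poor cells than in the unsexed library, and about as many against male pgc-rich cells. Against pgc-poor cells 44 of 5186 genes (0.848%) were at least 2-fold higher and 25 (0.482%) lower in the female library. In the male library 31 of 5052 (0.614%) were higher and 2 (0.0396%) lower. Against male pgc-rich cells 170 of 5152 genes (3.3%) were higher and 151 (2.93%) lower.

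The direction of the unsexed calls was mostly the same there. Over all genes that entered, ratios to pgc-poor cells exceeded 1 for 58.5% of 5186 (female) and 57.9% of 5052 (male). Ratios to male pgc-rich cells did so for 59.0% of 5152 genes. Whether the counts below depart from these shares was not tested. Of the 166 genes higher than in pgc-poor cells, 131 entered in the female library, with 109 in the same direction and 31 past 2-fold, and 113 in the male library, with 111 and 22. In the female library 15 were opposite with an interval off 1, and all 15 were more abundant in cells with fewer than 3 germ genes of that library. The share over all genes that entered is not given here, so this count is not read as a trait of these genes. Of the 169 lower genes, 126 of 141 had the same direction in the female and 136 of 144 in the male library, but only 4 and 2 passed the fold. Of the genes lower than in pgc-rich cells, 123 of 140 had the same direction in the male library and 72 passed the fold.

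The maternal RNAs CycB and wisp were well above 2-fold in both sexed libraries. CycB was 3.94-fold above pgc-poor cells in the female (3.82 to 4.06) and 3.27-fold in the male library (3.19 to 3.34), and wisp 3.01-fold and 2.64-fold. The early zygotic genes were low there, with 8.76 CPM of SNCF and 11.2 CPM of Z600 in female cells of the window and 8.17 and 19.4 CPM in male ones. Egr was 2.86-fold above pgc-poor cells in the female and 2.02-fold in the male library, and Dad 1.60-fold and 2.26-fold, at 21.4 and 25.7 CPM. Against male pgc-rich cells, genes above both unsexed neighbours had ratios of 0.986 (Hsp68), 0.731 (Dad), 0.881 (Hsp70Bc), 1.15 (egr) and 0.752 (cv-2). The ratios of stet and cnc were 0.634 and 1.47. Among these genes only stet had an interval off 1 there, 0.462 to 0.891.

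Against pgc-poor cells the heat shock genes took another course in the sexed libraries. Hsp23 in cells of the window was below pgc-poor cells, with a ratio of 0.852 in the female (0.836 to 0.868) and 0.918 in the male library (0.907 to 0.93). The ratios of Hsp26 were 0.808 and 0.858, and those of Hsp68 1.07 and 1.1. Against male pgc-rich cells Hsp23 and Hsp26 were higher, as in the unsexed library. The ratios there were 1.57 (1.49 to 1.67) and 1.38 (1.30 to 1.46). Cnc was below pgc-poor cells in both sexed libraries, with ratios of 0.567 and 0.542, whereas stet had ratios of 0.982 and 0.816. Genes that were higher at low pgc differed less than in the unsexed library, with RpS10a at 0.688 and 0.720 and TfIIA-S-2 at 0.327 and 0.358 of the pgc-poor level.

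Markers of other tissues gave a mixed picture of RNA from outside germ cells. Neural markers summed to 74.4 CPM in intermediate-pgc cells (84.6 in pgc-rich, 62.4 in pgc-poor) against 680 CPM in cells with fewer than 3 germ genes. Mesoderm markers summed to 156 CPM (169 and 212) against 750 CPM, epidermal markers to 175 CPM (145 and 90.5) against 756 CPM, and salivary gland markers to 12.8 CPM (12.6 and 11.4) against 191 CPM. Blastoderm markers, many of which are early zygotic genes, summed to 321 CPM (649 and 37.3) against 522 CPM. No UMI was found in the intermediate-pgc cells for Hml and gcm2 of 8 haemocyte markers, tj of 5 gonadal soma markers and PH4alphaSG1 of 4 salivary gland markers. Most of the haemocyte sum was crq, at 125 CPM in intermediate-pgc and 41.6 CPM in cells with fewer than 3 germ genes.

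Amnioserosa markers, like epidermal ones, had a higher sum in intermediate-pgc cells than in either neighbour. They summed to 222 CPM in intermediate-pgc cells against 131 CPM in pgc-rich and 111 CPM in pgc-poor cells, with 296 CPM in cells with fewer than 3 germ genes. Of 7 such markers 3 entered against pgc-rich cells and 2 were higher, led by peb at 84.0 against 27.6 CPM. Haemocyte markers summed to 142 CPM (126 and 147) against 219 CPM, gut markers to 82.4 CPM (141 and 29.1) against 260 CPM, tracheal markers to 36.3 CPM (52.1 and 9.92) against 188 CPM and gonadal soma markers to 65.4 CPM (90.5 and 40.9) against 444 CPM.

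Some of the genes past the fold were nonetheless more abundant outside germ cells. Cells with fewer than 3 germ genes exceeded both classes for 69 of the 149 genes higher and 29 of the 205 genes lower than in pgc-rich cells. The numbers were 51 of 166 higher and 17 of 169 lower against pgc-poor cells. The share over all genes that entered was not computed, so these counts are not read as a trait of the genes past the fold. The part of such RNA in these calls was not tested.

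The genes past the fold also had features of their own. Matched by identifier to the BDGP6.54 annotation, which held 99.4% of the listed genes, those lower than in pgc-rich cells had a median span of 3389 bp and those higher 1630 bp, against 2344.5 bp over all genes that entered. Genes higher than in pgc-poor cells spanned 4093 bp and those lower 1482 bp, against 2321 bp. Genes with a single exon made up 18.2% of the higher and 18.5% of the lower set against pgc-rich cells, and 9.15% of all. Against pgc-poor cells they made up 18.8% of the higher and 11.8% of the lower set, and 9.30% of all. X-linked and autosomal genes had median log2 ratios of 0.032 and 0.066 against pgc-rich cells and of -0.026 and -0.10 against pgc-poor cells.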

How the data were processed

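The deposited UMI counts of 3 libraries were used as the authors gave them, as gene by cell count matrices. Per the submitters' processing notes they were made with Cell Ranger and BDGP6, and the matrix headers name software 3.0.1 (unsexed) and 3.1.0 (female and male). The authors' dense count table of the unsexed library differed from the matrix in 0 values and holds 3 rows that name no gene, which were left out.

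UMIs were summed per class and scaled to CPM without mitochondrial genes. Ratios carry exact 95% intervals that assume Poisson counts and cover counting error only. With 1 library per group no test was made. Named genes are the 10 highest and 10 lowest in each comparison with a neighbour, 5 in each direction between steps, the genes 2-fold from both neighbours and list members past 2-fold. The members and gene lists were chosen with earlier results of these data known. Doublets were kept, and Scrublet scores were used in an alternative. Gene positions came from the BDGP6.54 annotation. The scripts were tested on simulated counts. Promoter motifs were not analysed here. Tools were Python 3.11.15, numpy 2.4.6, scipy 1.17.1, pandas 2.3.3, scanpy 1.11.5, R 4.3.3 and edgeR 4.0.16, the last for TMM scaling only.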

Additional observations from a re-analysis of the deposited data

Results flagged for a closer look

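Of the genes named by rule, 6 had ratios of intermediate-pgc to pgc-poor cells in opposite directions in the unsexed and female libraries, and the difference was not tested. Over all genes past the fold in the unsexed library, 15 higher genes and 1 lower gene were opposite in the female library with an interval off 1. The CPM ratio was 8.44 in the unsexed and 0.559 in the female library for D, 5.89 and 0.800 for gt, 4.41 and 0.366 for mira, 3.71 and 0.802 for Ubx, and 3.48 and 0.695 for vvl. For gnu the order was reversed, with 0.414 in the unsexed and 1.13 in the female library. The libraries differ in embryo age, kit version and the presence of Sxl-GFP, which cannot be told apart.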

How the results depend on the processing

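Against pgc-rich cells 149 genes were higher and 205 lower, and against pgc-poor cells 166 and 169, with 5 above and 2 below both. In the same order, a filter of 50 CPM gave 37, 110, 106, 80, 3 and 1, a filter of 5 CPM 356, 327, 289, 413, 10 and 11, and no filter 2631, 1268, 1504, 2382, 673 and 314. A fold of 1.5 gave 436, 476, 397, 625, 15 and 12, and a fold of 3 gave 42, 65, 80, 53, 0 and 0. The pgc window of 2 to 10 per 10000 held 496 cells and put 8 genes above both neighbours. Thinning to 2000 UMIs left 2 above and 1 below both, and TMM scaling 1 below both. TMM scaling moved the median log2 ratio to pgc-poor cells from -0.090 to 0.042, that to pgc-rich cells from 0.060 to -0.0097, and the share of calls against pgc-poor cells that were higher from 49.6% to 65.0%, and mean UMIs per cell moved that share to 37.1%. Against pgc-rich cells this share was 42.1%, or 57.3% with thinned cells. Of 127 calls of named genes, 11 were ended and 23 moved by over 1.5 times by at least 1 alternative. No paired analysis was possible because each group has 1 library and no comparison comes from a test. All ratios rest on 1 unsexed library, so variation between embryo collections is not measured, and genes under 20 CPM were not compared.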
